A study of Mus musculus with 22 samples.

Results

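The astrocyte intermediate filament genes described here are Gfap, Vim, Nes, Synm and Plec. They were taken by gene symbol from the deposited count table, and all 5 were found among its 29367 genes. Each of the 5 passed the filter on low counts in every fit. The libraries hold mRNA pulled down with HA-tagged ribosomes from the optic nerve head (ONH), the unmyelinated start of the nerve, and from the optic nerve proper (ONP), the most proximal stretch behind it. All mice were Rpl22 HA/HA Cre+, aged 3 to 4 months, homozygous for the ribotag allele and carrying a GFAP-Cre transgene, so that Cre driven by the GFAP promoter tags ribosomes wherever that promoter has been active. Microbeads were injected into 1 eye to raise intraocular pressure, and tissue was taken 7 or 30 days later. Each library pooled the tissue of 4 mice (2 males and 2 females), with 4 libraries per region at 7 days and 7 per region at 30 days, 22 in all. Every group had received microbeads, and uninjured mice were not analysed here, so no value below is a change from the uninjured state.

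Intermediate filaments are rope-like polymers that give a cell mechanical strength. Astrocytes build them from GFAP and vimentin, and nestin and synemin join as partners that do not form filaments alone. Plectin is a large cytolinker that ties the filaments to actin, microtubules and attachment sites at the membrane. Higher GFAP and vimentin and renewed nestin are widely used signs of reactive astrocytes.

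In short, Vim and Nes were higher in ONH than in ONP libraries at both days. Plec was also higher at both days and Synm at 30 days. Gfap was the 1 gene of the 5 whose level was lower in the ONH at 30 days. With 1 library left out, the Plec call at 7 days held in 3 of 8 fits. The Gfap call at 30 days held in 6 of 14. From 7 to 30 days Vim, Nes and Synm fell in the ONP. None of the 5 passed the test in the ONH, where 0 of 15668 genes passed with the ONH libraries fitted alone. None of the 5 was shown to change differently in the ONP than in the ONH.

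Total counts ranged from 16292489 to 33307092 per library, and 3 counts corresponded to 0.0901 to 0.184 CPM, which are counts scaled to a common library total. The median correlation of a library with the others of its group was 0.898 to 0.902 in the ONH at 7 days and 0.932 to 0.964 in the other groups. Replicate libraries differed from each other by more than sampling noise. The 10 astrocyte markers (among them Aldh1l1, Aqp4 and Slc1a3) were each detected in every group. They summed to 25348 to 38800 CPM at 7 days and 38151 to 68847 CPM at 30 days in the ONH. In the ONP they summed to 25752 to 34331 CPM (median 29296) and 24270 to 47343 CPM (median 41109). Oligodendrocyte markers (6 genes, among them Mbp and Mog) summed to 14646 to 27540 CPM at 7 days and 9966 to 30709 CPM at 30 days in the ONH. In the ONP they summed to 57675 to 69840 CPM and 16978 to 57792 CPM, so myelin mRNA was also abundant in these libraries. In such bulk libraries fewer cells of a type and less RNA per cell cannot be told apart.

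The genes lie on 5 chromosomes of the GRCm38 build. Gfap (ENSMUSG00000020932) spans chr11:102887336-102900912 on the minus strand, and Vim (ENSMUSG00000026728) spans chr2:13573927-13582826 on the plus strand. Nes (ENSMUSG00000004891) spans chr3:87971078-87980451 on the plus strand. Synm (ENSMUSG00000030554) spans chr7:67730160-67759742 on the minus strand. Plec (ENSMUSG00000022565) is the longest, at chr15:76170974-76232574 on the minus strand, with 18.113 kb of merged exons against 4.218 kb for Gfap. The library kit does not mark strand. Reads of Gfap therefore cannot be told apart from those of Gm26668 on the opposite strand, or reads of Synm from those of Ttc23 and Gm45102, where exons overlap. Plec overlaps Parp10, Gm25720 and Mir1942 on its own strand, where strand would not separate shared reads.

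The sequences before the start sites of Gfap, Nes and Synm are shown because Nes and Synm had the largest falls in the ONP while the Gfap difference pointed the other way. They are the RefSeq promoter windows (GRCm38.p6) without the transcribed bases, written 5′ to 3′ on the gene's strand, at chr11:102897201-102897450 for Gfap, chr3:87970843-87971077 for Nes and chr7:67759743-67759992 for Synm. The Gfap window precedes the RefSeq start and lies inside the annotated span of the gene. Capitals mark matches to 6 short motifs searched on both strands.
Gfap: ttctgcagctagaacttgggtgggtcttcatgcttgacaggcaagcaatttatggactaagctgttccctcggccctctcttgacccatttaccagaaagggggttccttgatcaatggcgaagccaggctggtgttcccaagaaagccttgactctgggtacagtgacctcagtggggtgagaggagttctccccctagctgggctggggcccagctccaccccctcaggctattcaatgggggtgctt
Nes: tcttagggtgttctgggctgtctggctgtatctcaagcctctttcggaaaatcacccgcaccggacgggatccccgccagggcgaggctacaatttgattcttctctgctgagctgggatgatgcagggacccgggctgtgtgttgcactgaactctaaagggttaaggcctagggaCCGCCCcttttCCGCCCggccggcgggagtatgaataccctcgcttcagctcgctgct
Synm: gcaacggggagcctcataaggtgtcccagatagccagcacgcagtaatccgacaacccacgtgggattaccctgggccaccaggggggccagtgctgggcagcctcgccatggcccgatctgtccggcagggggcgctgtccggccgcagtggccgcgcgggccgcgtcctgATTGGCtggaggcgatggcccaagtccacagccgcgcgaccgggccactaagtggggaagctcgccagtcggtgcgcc

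The Nes window held 2 GC boxes (GGGCGG, here on the opposite strand), 73 and 62 bases before the RefSeq start, which lies past 15 more bases that are in an annotated exon and not printed, a motif present in 32.7% of 32851 mouse windows. The Synm window held a CCAAT box 78 bases from the start (33.8% of windows), which shares bases with the NFI motif TTGGC at 77 bases (41.5% of windows). In the Vim window, which overlaps an exon and is not printed, the search found a TATA box (TATAAA, 12.4% of windows) at 32 bases, CCAAT boxes at 196 and 94 bases and TTGGC at 93 and 16 bases. The Gfap window held none of the 6, which included the AP-1 site TGACTCA (4.46% of windows) and the STAT site TTCNNNGAA (7.02% of windows). These matches are descriptions of the letters and say nothing of binding.

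Levels of different genes were set side by side as mean CPM per kb of merged exons. Gfap was the most abundant of the 5 in every group, from 3025 ± 595 (SD, n = 4) in the ONP at 7 days to 4307 ± 998 (SD, n = 7) in the ONP at 30 days. Vim came next in each group, from 775 ± 164 per kb (SD, n = 4) in ONH libraries of 7 days down to 239 ± 59.6 (SD, n = 7) in the ONP at 30 days. The order of the lower genes differed by region. In the ONH, Nes (38.5 ± 12.7 per kb at 7 days, n = 4, and 30.3 ± 8.76 at 30 days, n = 7) stood above Synm (19.2 ± 4.83 and 15.5 ± 1.83). In the ONP, Synm (15.0 ± 2.96 at 7 days, n = 4, and 8.15 ± 1.75 at 30 days, n = 7) stood above Nes (11.6 ± 4.36 and 4.82 ± 1.01). Within libraries, Nes was above Synm in 11 of 11 ONH libraries, and Synm was above Nes in 2 of 4 ONP libraries at 7 days and 6 of 7 at 30 days. Plec was lowest per kb, at 7.66 ± 2.98 (SD, n = 4) in ONH libraries of 7 days and 2.75 ± 0.852 (SD, n = 7) in the ONP at 30 days.

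**Figure D1:**
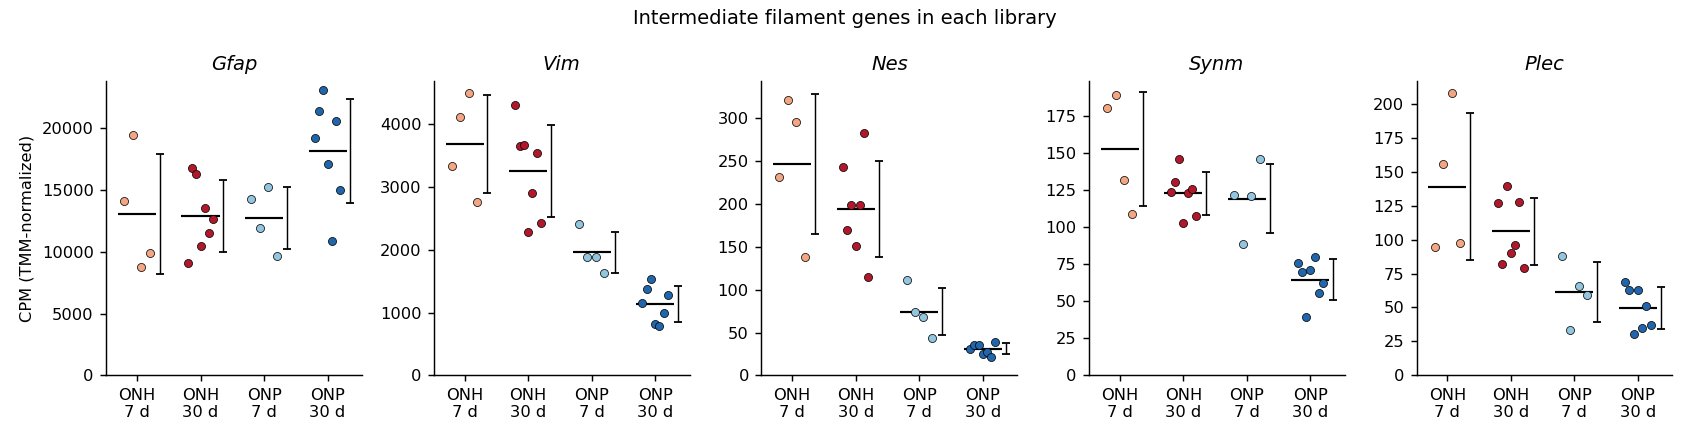
Level of each gene in CPM (vertical axis, TMM-normalized) in every library of the 4 groups of region and day. Points are libraries, horizontal lines are group means and bars beside them are ± 1 SD. The ONP libraries at 30 days lie lowest for Vim (787 to 1532 CPM) and Nes (21.99 to 39.4 CPM), whereas for Gfap they reach the highest level of any group (23068 CPM).

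The first comparison asked whether ONH and ONP libraries differed at 30 days. Of the 5 genes, 4 were higher in the ONH with no overlap between regions and 1, Gfap, was lower with overlap. Over all 15133 genes tested by edgeR's quasi-likelihood test with Benjamini-Hochberg adjustment, 41.8% were called, 21.8% higher and 20% lower in the ONH, and 9.26% were higher without overlap.

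Nes, the filament partner typical of progenitors and reactive glia, differed most. Its level was 115 to 283 CPM (median 199) in the 7 ONH libraries and 21.99 to 39.4 CPM (median 31.0) in the 7 ONP libraries. The lowest ONH library thus lay above the highest ONP library. The log2FC was 2.64 ± 0.187 (SE, edgeR adjusted p = 1.05e-07), and Nes ranked 27 of the 15133 genes by p-value.

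Vim, which encodes the filament protein that copolymerizes with GFAP, ranged from 2283 to 4296 CPM (median 3530) in the ONH and from 787 to 1532 CPM (median 1149) in the ONP. The regions did not overlap, with a log2FC of 1.51 ± 0.180 (SE, edgeR adjusted p = 1.48e-05). Synm, the synemin gene, ranged from 103 to 146 CPM (median 124) in the ONH and from 39.2 to 80.0 CPM (median 69.6) in the ONP. Again no library of 1 region entered the range of the other, and the log2FC was 0.92 ± 0.139 (SE, edgeR adjusted p = 1.06e-04).

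Plec, the cytolinker, ranged from 79.2 to 139 CPM (median 95.6) in the ONH and from 30.8 to 68.5 CPM (median 51.1) in the ONP. The regions did not overlap and the log2FC was 1.08 ± 0.198 (SE, edgeR adjusted p = 4.96e-04). All 4 of these genes kept their call without any 1 of the 14 libraries.

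Gfap, the main filament gene of mature astrocytes, ranged from 9053 to 16773 CPM (median 12662) in the ONH and from 10834 to 23068 CPM (median 19182) in the ONP. The ranges overlapped, and 1 ONP library, number 5, lay well below the other ONP libraries. The log2FC was -0.50 ± 0.184 (SE, edgeR adjusted p = 0.0397). The methods state that both regions came from the same mice, and with the replicate number as a block the value was -0.49 with an adjusted p of 0.023. This call was fragile: leaving out any 1 of ONH libraries 1, 4, 5 and 6 or ONP libraries 1, 2, 3 and 6 raised the adjusted p to between 0.0564 and 0.0797, at a log2FC of -0.51 to -0.43, and 6 of the 14 omissions kept it.

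At 7 days, 3 of the 5 genes were higher in the ONH, each without overlap, where 6.34% of the 14752 genes tested were called higher in the ONH and 9.89% were higher without overlap. Called genes of either direction made up 13.2%. With library sizes alone as the scaling, 1392 genes were called higher and 840 lower, against 936 and 1004 with TMM, and the median log2FC of all genes was 0.18 in place of 0.07.

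Values at 7 days are given in the order of the library numbers, 1, 3, 5 and 6 for the ONH and 1, 2, 5 and 6 for the ONP. Nes stood at 232, 321, 296 and 138 CPM in the 4 ONH libraries and at 112, 73.6, 68.7 and 44.2 CPM in the 4 ONP libraries. Every ONH library exceeded every ONP library, with a log2FC of 1.75 ± 0.320 (SE, edgeR adjusted p = 0.00529). Vim stood at 3336, 4109, 4496 and 2757 CPM in the ONH and at 2414, 1888, 1888 and 1636 CPM in the ONP. Here too the regions were separate, with a log2FC of 0.93 ± 0.193 (SE, edgeR adjusted p = 0.0103). Both calls held without any 1 of the 8 libraries.

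Plec stood at 94.4, 156, 208 and 97.2 CPM in the ONH and at 87.8, 33.7, 65.4 and 59.5 CPM in the ONP. The 2 lower ONH libraries lay close above the highest ONP library, and the log2FC was 1.19 ± 0.324 (SE, edgeR adjusted p = 0.0353). The Plec call was lost without ONH library 3 or 5 or without ONP library 2, 5 or 6, with adjusted p of 0.0799 to 0.101 and a log2FC of 0.91 to 1.22.

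Synm and Gfap did not pass at 7 days. Synm stood at 180, 189, 132 and 109 CPM in the ONH and at 121, 88.6, 121 and 146 CPM in the ONP, with a log2FC of 0.38 ± 0.220 (SE, edgeR adjusted p = 0.285). Gfap stood at 14079, 19434, 8775 and 9884 CPM in the ONH and at 14284, 11901, 15220 and 9630 CPM in the ONP, with a log2FC of 0.05 ± 0.260 (SE, edgeR adjusted p = 0.913). The 4 ONH libraries held both the highest and the lowest Gfap value at this day, and without 1 of them, number 3, the log2FC was -0.22.

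**Figure D2:**
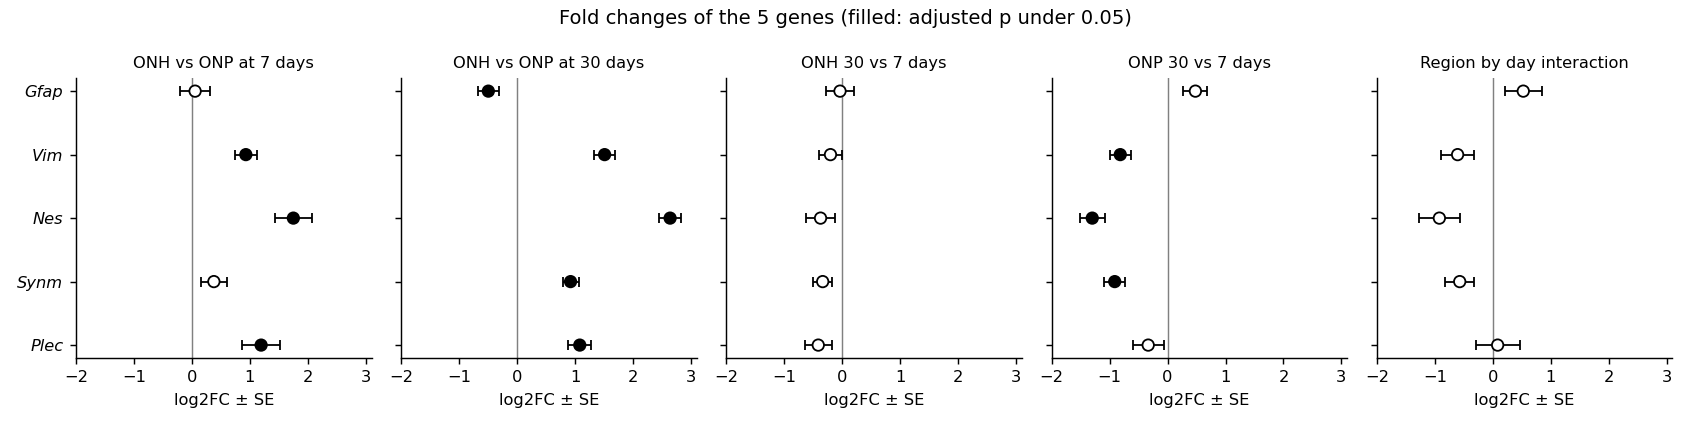
Log2FC of the 5 genes (horizontal axis) with its SE in the 4 pairwise comparisons and in the interaction, which is the change from 7 to 30 days in the ONP minus that in the ONH. Filled points passed an adjusted p of 0.05. Nes reached 2.64 at 30 days and 1.75 at 7 days in ONH versus ONP, and no gene passed in the ONH over time or in the interaction.

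Within the ONP, 3 of the 5 genes fell from 7 to 30 days, all 3 without overlap, and none rose. Among all 15491 genes tested, 9.21% were lower and 7.82% higher at 30 days, 17% in all, and 5.79% were lower without overlap. With library sizes alone as the scaling, 1934 genes were called higher and 966 lower, against 1211 and 1427 with TMM. Under it the median over all genes was 0.11, and it left the direction and the call of each of the 5 genes as they were, with a log2FC of 0.60 for Gfap, -0.70 for Vim, -1.18 for Nes, -0.80 for Synm and -0.21 for Plec.

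Nes fell by 1.30 ± 0.217 on the log2 scale (SE, edgeR adjusted p = 0.00278), from 44.2 to 112 CPM at 7 days to 21.99 to 39.4 CPM at 30 days. Synm fell by 0.91 ± 0.179 (SE, edgeR adjusted p = 0.00610), from 88.6 to 146 CPM to 39.2 to 80.0 CPM. Vim fell by 0.82 ± 0.183 (SE, edgeR adjusted p = 0.0116), from 1636 to 2414 CPM to 787 to 1532 CPM. In each case the highest 30 day library lay below the lowest 7 day library, and each call held without any 1 of the 11 libraries.

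Plec and Gfap did not pass in the ONP. Plec ranged from 33.7 to 87.8 CPM at 7 days and from 30.8 to 68.5 CPM at 30 days, with a log2FC of -0.33 ± 0.269 (SE, edgeR adjusted p = 0.422). Gfap ranged from 9630 to 15220 CPM at 7 days and from 10834 to 23068 CPM at 30 days, with a log2FC of 0.48 ± 0.208 (SE, edgeR adjusted p = 0.130). The 30 day range reached well above the 7 day range but its lowest library lay inside it. Without ONP library 5 of 30 days the Gfap log2FC was 0.61 and passed (edgeR adjusted p = 0.0248).

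In the ONH none of the 5 genes passed between 7 and 30 days, and the ranges of the days overlapped for each, where 2.28% of all genes had days that did not overlap. With the ONH libraries fitted alone, no gene at all passed by edgeR (0% of 15668; 292 genes passed in a single fit of the 4 groups and 167 without ONH 7 day library 5), while 13.9% had an unadjusted p under 0.05 and DESeq2 called 446 genes (2.49% of 17929), none of them among the 5. Means and SDs are over 4 libraries at 7 days and 7 libraries at 30 days. Vim averaged 3674 ± 779 CPM and then 3248 ± 736 CPM, with a log2FC of -0.20 ± 0.194 (SE, edgeR adjusted p = 0.658). Nes averaged 247 ± 81.5 and then 194 ± 56.2 CPM, with a log2FC of -0.38 ± 0.249 (SE, edgeR adjusted p = 0.510). Synm had the smallest p-value of the 5 in the ONH. It averaged 153 ± 38.4 and then 123 ± 14.5 CPM, with a log2FC of -0.34 ± 0.167 (SE, edgeR adjusted p = 0.382). Plec averaged 139 ± 54.0 and then 106 ± 24.7 CPM, with a log2FC of -0.42 ± 0.234 (SE, edgeR adjusted p = 0.436). Gfap had nearly equal means, 13043 ± 4834 and 12894 ± 2876 CPM, with a log2FC of -0.04 ± 0.234 (SE, edgeR adjusted p = 0.951).

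Whether the regions differed in their change over time was tested as an interaction over all 22 libraries. None of the 5 genes passed by edgeR or DESeq2, where 0.543% of 16748 genes did by edgeR and 2.28% of 17945 by DESeq2, and 12.6% had an unadjusted edgeR p under 0.05. On the log2 scale, the ONP change minus the ONH change was -0.92 ± 0.358 for Nes (SE, edgeR adjusted p = 0.275), -0.61 ± 0.281 for Vim (edgeR adjusted p = 0.380) and -0.57 ± 0.251 for Synm (edgeR adjusted p = 0.350). These 3 genes had an unadjusted p under 0.05 and the other two did not. For Gfap it was 0.53 ± 0.316 (SE, edgeR adjusted p = 0.519) and for Plec 0.08 ± 0.378 (SE, edgeR adjusted p = 0.962). The falls of Nes, Vim and Synm in the ONP were therefore not shown to differ from their values in the ONH.

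Ratios of counts within a library do not move with library scaling and describe the balance of these mRNAs. They are not corrected for gene length and do not measure protein. Gfap counts were 1.95 to 4.73 times those of Vim in the ONH at 7 days and 2.11 to 5.24 times at 30 days. In the ONP they were 5.89 to 8.06 times those of Vim at 7 days and 11.7 to 20.8 times at 30 days. The regions did not overlap at either day, nor did the days within the ONP. Counts of Nes relative to Gfap went the other way, with means of 0.0202 and 0.0160 in the ONH at 7 and 30 days and 0.00578 and 0.00179 in the ONP. Nes relative to Vim was closer between groups, at 0.0659, 0.0600, 0.0372 and 0.0278 in the same order. These ratios are descriptions with no test, and they contain the same counts as the comparisons above.

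**Figure D3:**
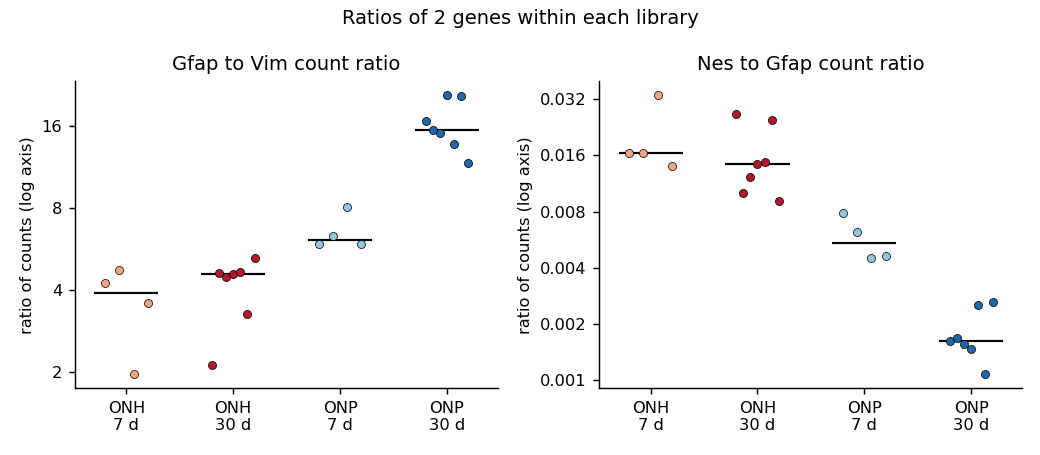
Ratio of Gfap to Vim counts and of Nes to Gfap counts within each library (log vertical axes) by region and day. Points are libraries and lines are medians. The Gfap to Vim ratio lies between 1.95 and 5.24 in all ONH libraries and between 5.89 and 20.8 in all ONP libraries.

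The 5 genes did not vary as 1 unit across libraries. Vim and Nes followed each other most closely, with r = 0.97 for log2 CPM over 22 libraries and 0.78 once group means were removed. Synm and Plec correlated with Vim and Nes at 0.76 to 0.83 over all libraries but at -0.05 to 0.38 with group means removed, so most of that likeness lay between groups. Gfap had negative r with the other 4 over all libraries, from -0.45 to -0.32, and 0.07 to 0.36 with group means removed. All pairs share the same libraries and their scaling.

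Of 16737 genes, those closest to Gfap over the 22 libraries were Lgi4 (r = 0.89), Ass1 (0.89), an enzyme of arginine synthesis, and Pygb (0.87), the brain form of glycogen phosphorylase. Next to Vim, after Nes, came Sparc (0.96), a secreted matrix-binding glycoprotein, and Chl1 (0.95), a cell adhesion molecule. Nes had Clrn1 (0.96) and Sparc (0.96) after Vim. Synm was most like Sdc1 (0.88), Pde4d (0.88) and Lmna (0.87), and Plec most like Utrn (0.92), Creb3 (0.90) and Cavin1 (0.89). With group means removed, r was 0.85 to 0.89 for the 3 genes like Gfap and 0.77 to 0.90 for those like Vim, with Sparc highest. It was 0.51 to 0.78 for those like Nes, 0.51 to 0.59 for those like Synm and 0.66 to 0.79 for those like Plec.

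Other genes around the filament system were read as lists. For comparison, edgeR called 41.8% of all genes tested between regions at 30 days. Of all genes tested, 21.8% were called higher and 20% lower in the ONH. The same test called 13.2% between regions at 7 days and 17% in the ONP over time. Among 9 other cytoplasmic filament genes, 4 were higher and 1 lower in the ONH at 30 days by edgeR's test. The neurofilament genes Nefl, Nefm and Nefh, known from axons, had log2FC of 3.20, 2.85 and 5.67, Prph, a filament gene of peripheral neurons, 1.93, and Sync -0.99. At 7 days Nefl (1.86) and Nefh (3.34) were higher and Bfsp2 (-0.90), known from the lens, was lower in the ONH. From 7 to 30 days in the ONP, Nefl (-1.94), Nefm (-1.76), Nefh (-3.66) and Bfsp2 (-0.72) fell. These neurofilament genes were scarce in the ONP at 30 days, at 2.95 ± 1.75, 0.790 ± 0.403 and 0.369 ± 0.232 CPM (SD, n = 7). Markers of neurons (4 genes, among them Snap25 and Stmn2) summed to 5.95 to 76.5 CPM in the ONH and 7.66 to 21.5 CPM in the ONP over both days, and the part of axons in these values was not tested.

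The simple-epithelial keratin pair Krt8 and Krt18 was higher in the ONH at 30 days (log2FC 3.97 and 5.32, of 7 keratins tested) and at 7 days (4.32 and 6.09, of 14 tested), where Krt18 averaged 48.5 ± 32.6 CPM (SD, n = 4) in the ONH. The SD of Krt8 was as large as its mean there, 14.3 against 13.8 CPM. In the ONP over time Krt10 rose (1.32) and Krt14, a basal keratin, fell from 11.1 ± 12.5 CPM (n = 4) to 0.234 ± 0.479 CPM (n = 7), of 13 tested. Among 3 nuclear lamins, Lmna was higher in the ONH at both days (0.72 at 30 days and 0.73 at 7 days) and fell in the ONP (-0.52) together with Lmnb2 (-0.49).

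The plakins, the cytolinker family of plectin, were higher in the ONH at 30 days in all 5 tested: Dst (0.52), Macf1 (0.51), Dsp (1.89), Ppl (0.79) and Evpl (1.44), with a median of 0.79 against -0.01 over all genes. None of 6 passed at 7 days, where 13.2% of all genes were called. In the ONP, Dst (-1.27) and Macf1 (-0.52) fell, of 5 tested. By edgeR, Dst was the 1 gene of all these lists to pass the interaction (-1.05 ± 0.177, SE, edgeR adjusted p = 0.00873). Its level was 120 ± 18.5 CPM (n = 4) and 50.9 ± 4.57 CPM (n = 7) in the ONP at 7 and 30 days against 83.7 ± 13.5 and 73.4 ± 8.84 CPM in the ONH. DESeq2 passed 6 list genes in the interaction, Dst with Nefm, Nefh, Bfsp2, Lmnb2 and Rock1, all more negative in the ONP.

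Of 9 membrane anchors and partners of plectin and synemin, 3 were higher and 2 lower in the ONH at 30 days. Over all genes 41.8% were called there. Utrn, the dystrophin relative utrophin, had a log2FC of 1.15, and the focal adhesion genes Vcl and Tln1 0.92 and 1.11, while Dtna (-0.80) and Zyx (-0.71) were lower. Dmd joined them with the replicate block (adjusted p = 0.0210 against 0.148 without it). At 7 days Utrn (1.15) and Vcl (1.26) were higher and Dtna (-0.76) lower. In the ONP Itgb4 (-0.83), the integrin that binds plectin, fell, as did Dag1 (-0.48), Vcl (-0.78) and Tln1 (-0.60).

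Among 14 chaperones, proteases and modifying enzymes, 3 were higher and 2 lower in the ONH at 30 days, where 41.8% of all genes were called. Hspb1, a small heat shock protein that binds filaments, was higher in the ONH at 30 days (1.38) and fell in the ONP (-0.65). At 7 days it was higher too, at 356 ± 83.9 CPM in the ONH against 180 ± 27.7 CPM in the ONP (SD, n = 4 each). Casp6 (0.88) and Rock1 (0.52) were higher and Capn2 (-0.77) and Pak1 (-0.74) lower in the ONH at 30 days, and Pak1 was lower at 7 days (-1.49, of 13 tested). Rock1 (-0.66) and Pak1 (-0.78) also fell in the ONP, where Aurkb rose from 0.0937 ± 0.187 CPM (n = 4) to 2.48 ± 2.35 CPM (n = 7). The 7 day mean of Aurkb lay below the level of 3 counts in those ONP libraries (0.104 to 0.184 CPM). Of 7 transcription factors known to act at Gfap, Vim or Nes, Sox2 (0.72) and Nfib (0.35) were higher in the ONH at 30 days, Nfix (-0.69) was lower at 7 days, and in the ONP Sox2 rose (0.81) and Stat3 fell (-0.53). With the replicate block Stat3 also passed in ONH versus ONP at 30 days (adjusted p = 0.0317 against 0.0712). In the ONH over time no gene of these lists passed by edgeR, and DESeq2 called Lmna, Krt5, Krt13, Krt14, Krt19 and Nfix.

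**Figure D4:**
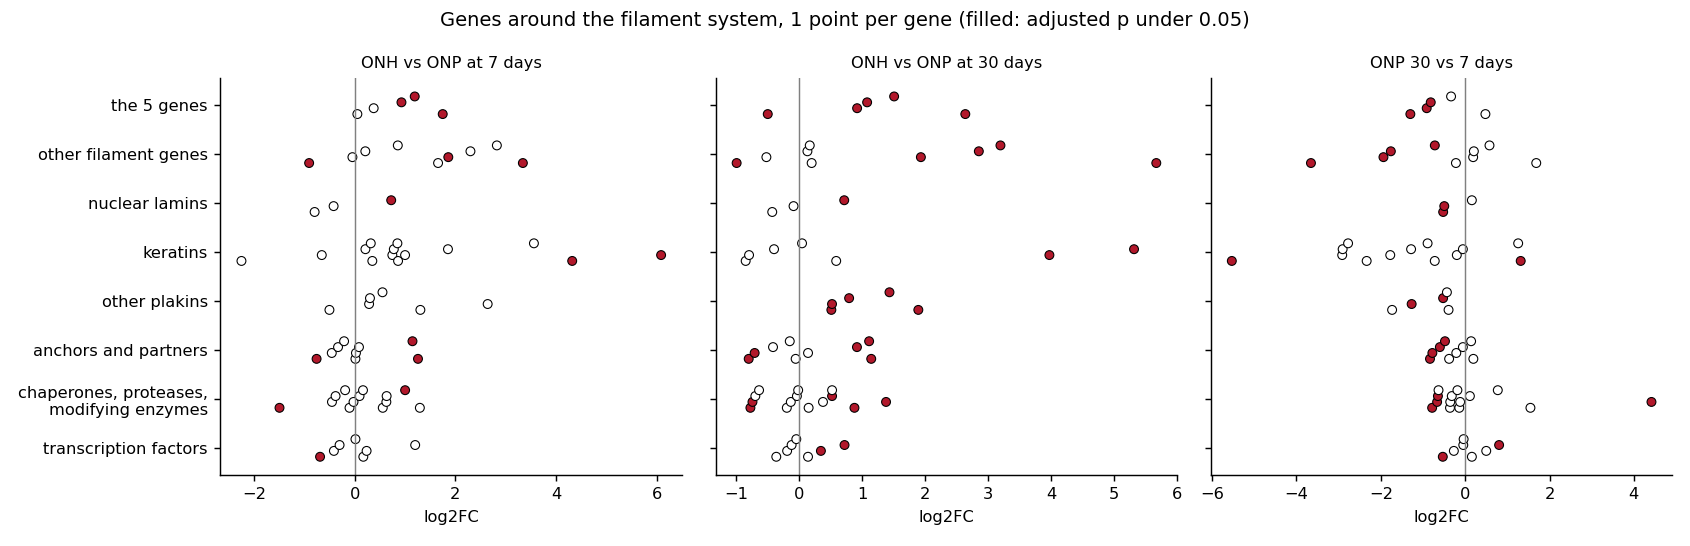
Log2FC (horizontal axis, scales differ between panels) of the 5 genes and of 7 lists around the filament system in ONH versus ONP at 7 and 30 days and in the ONP at 30 versus 7 days. Each point is a gene and filled points passed an adjusted p of 0.05. All 5 plakins tested at 30 days lie to the right of 0, from 0.51 to 1.89.

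Markers of some other cell types differed in the same comparisons. Of all genes tested, 41.8% were called between regions at 30 days, 13.2% at 7 days and 17% in the ONP over time. Pigment cell and retinal pigment epithelium markers (4 of 4 higher in the ONH at both days) summed to 36.8 to 545 CPM in the ONH and 1.46 to 7.10 CPM in the ONP. Photoreceptor markers (4 of 4 higher at both days) summed to 76.1 to 5109 CPM against 2.23 to 115 CPM. Oligodendrocyte markers went the other way, with 6 of 6 lower in the ONH at 7 days (median log2FC -1.85) and 5 of 6 at 30 days (-0.97). No microglia, oligodendrocyte precursor, fibroblast or surface epithelium marker was called at 7 days or in the ONP over time. At 30 days 1 of 6 microglia and 1 of 2 precursor markers were lower in the ONH. Microglia markers in the ONP had a median sum of 1055 CPM at 7 days and 220 CPM at 30 days, with overlapping ranges. Fibroblast markers in the ONH had medians of 284 and 82.6 CPM, also with overlap.

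Vim and Nes are also known from vessel cells. Endothelial markers in the ONP summed to 88.2 to 111 CPM at 7 days and 8.15 to 69.5 CPM at 30 days. Of these 5 markers, 3 were called lower. Mural cell markers in the ONP summed to 39.8 to 71.6 and 24.7 to 40.8 CPM, with 2 of 3 tested called lower. Every endothelial and mural marker tested also had a negative log2FC in the ONH over time. The ONH medians were -1.94 for endothelial and -1.66 for mural markers, against -1.89 and -1.18 in the ONP. By edgeR none passed in the ONH, where no gene at all did. DESeq2 called 2 of 5 endothelial and 3 of 4 mural markers there. The summed ranges of the days overlapped in the ONH for both lists. Between regions, 0 of 5 endothelial markers passed at either day, and mural markers were 2 higher and 1 lower in the ONH of 3 tested at 30 days and 1 higher of 4 at 7 days. Oligodendrocyte markers fell in the ONP for 5 of 6 (median -0.83). Of the 10 astrocyte markers, S100b rose (0.62) and Glul fell (-0.83) in the ONP. At 30 days Aqp4 (-1.43) and Slc1a2 (-0.79) were lower and S100b (0.76) higher in the ONH. At 7 days Aqp4 (-1.65) and Slc1a2 (-0.70) were lower there. No listed marker was at 0 in all libraries of a group. The part of these markers' cells in the values of the 5 genes was not tested.

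**Figure D5:**
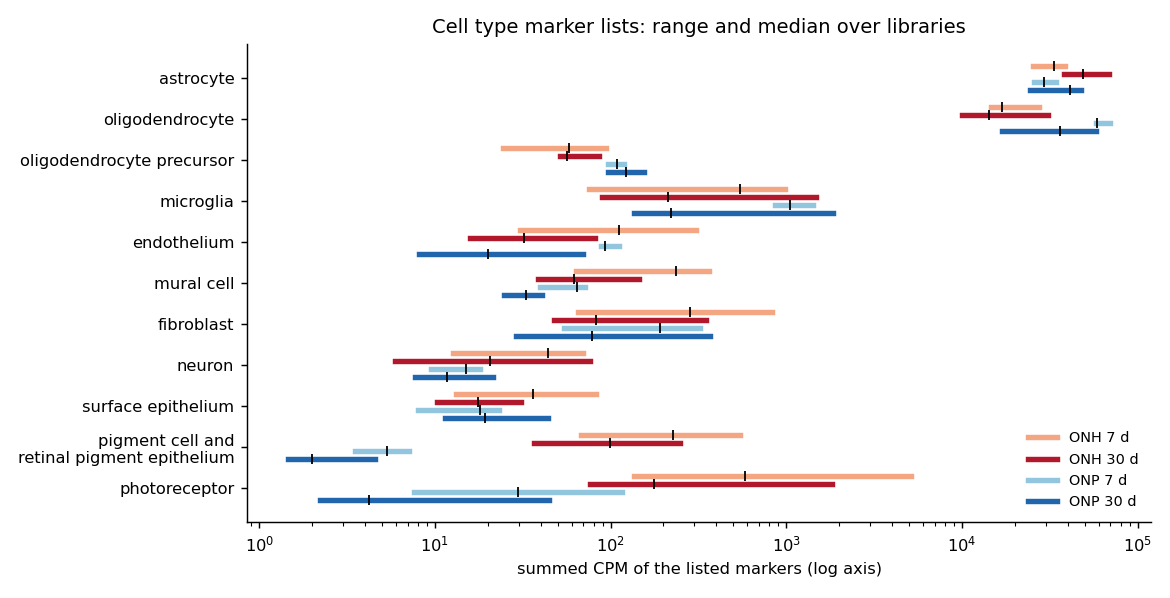
Summed CPM of each marker list (log horizontal axis) in the 4 groups. Bars run from the lowest to the highest library and ticks mark medians. Pigment cell and photoreceptor markers separate the regions within each day, at most 7.10 CPM for pigment markers in the ONP and at least 36.8 CPM in the ONH.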

How the data were processed

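The table analysed holds expected counts per gene that the authors deposited, rounded to whole numbers on reading. The authors aligned reads to mm10 with STAR 2.6.1d in bcbio. They quantified transcripts with Salmon 0.14.2 on Ensembl release 94 and summed them to genes with tximport. Their DESeq2 1.34.0 variance-stabilized log2 table was not used. Counts were tested with edgeR 4.0.16 (R 4.3.3) by quasi-likelihood, two-sided, with TMM factors, filterByExpr and Benjamini-Hochberg adjustment over all genes tested (threshold 0.05, no fold limit), each pair of groups fitted alone and the interaction over 22 libraries. Levels are CPM, with TMM factors over all libraries. The script was tested on simulated data. Alternatives were DESeq2 1.42.0, limma 3.58.1 voom, other scalings and filters, a single fit of 4 groups and leaving out each library.

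The members and lists were chosen with earlier results of these data known. Every member was named, with list genes called in a comparison (at most 6 per list, highest mean CPM first) and the 3 genes of highest r with each member. Gene spans and lengths came from GENCODE M21, in which 29322 of 29367 IDs were found. Promoter windows came from RefSeq (4 of 5 members).

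Per the methods, ONH and ONP came from the same mice. That equal replicate numbers mark the same mice at 30 days is an inference. Deviations from group means correlated at 0.077 to 0.471 within numbers, and 3 of 7 ONH libraries correlated best with their own number. The 7 day columns carry numbers other than the labels' and were assigned to groups only. A replicate pooled 4 distinct mice per the labels, which do not say whether mice were shared between pools, and p-values measure the spread between pools. Total counts of 16292489 to 33307092 per library set the depth. A marker gene of the lists is not reported here and was left out of its list.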

Additional observations from a re-analysis of the deposited data

How the results depend on the processing

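Of the log2FC of the 5 genes in the 5 tests, 203 values from other settings kept direction and call and 2 lost the call: Gfap in ONH versus ONP at 30 days with no filter on low counts (-0.53, adjusted p = 0.0532) and Plec at 7 days with limma-voom (1.08, adjusted p = 0.0504). With 1 library left out, 308 values kept both, 13 lost the call, 1 gained it and 8 changed sign. The sign changes were Gfap in the ONH over time (0.03 and 0.0026 without ONH 30 day libraries 1 and 4, 0.21 without ONH 7 day library 3, range -0.19 to 0.21), Gfap at 7 days (-0.0040, -0.22 and -0.06, range -0.22 to 0.18) and Plec in the interaction (-0.17 and -0.08, range -0.17 to 0.35). None of these had passed the test. The Gfap difference at 30 days ranged from -0.61 to -0.43 (adjusted p 0.00798 to 0.0797) and that of Plec at 7 days from 0.91 to 1.40 (0.0257 to 0.101).

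Per kb of the longest transcript in place of merged exons, Gfap was 4926, 4869, 4818 and 6861 CPM and Vim 1256, 1110, 669 and 388 CPM (ONH at 7 and 30 days, ONP at 7 and 30 days). The order of the 2 genes was the same.

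Counts over all genes moved more. In the ONH over time 0 genes became 446 with DESeq2, 2 with no filter, 292 in a single fit of 4 groups and up to 167 without ONH 7 day library 5. In the ONP over time 2638 became 1189 in the single fit and 1439 without ONP 7 day library 6. At 7 days 1940 became 3210 with DESeq2, 3785 in the single fit and 1147, 1173 and 1102 without ONP libraries 2, 5 and 6. The interaction's 91 became 409 with DESeq2, 55 with limma-voom, 50 with no filter and 22 to 318 with 1 library left out. The cause was not tested.

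The replicate block at 30 days left the calls of the 5 genes as they were (Gfap -0.49, Vim 1.52, Nes 2.62, Synm 0.94, Plec 1.11). With the 30 day pairs as a block by limma's duplicateCorrelation the interaction had 161 calls over all genes and none of the 5 (Gfap 0.47, Vim -0.62, Nes -0.86, Synm -0.61, Plec 0.06). No paired fit was made at 7 days, because the columns are numbered 1, 3, 5 and 6 for the ONH and 1, 2, 5 and 6 for the ONP, unlike the labels, and were not tied to label replicates.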
